A study of Mus musculus with 4 samples.

Results

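Slc10a2, Fabp6 and Fgf15 form the ileal bile acid axis, and all 3 were found by symbol in a table of 22456 gene symbols measured by RNA-seq in mouse jejunal epithelium. The 4 libraries came from adult mice on a 129xC57/Bl6xSvJ mixed background. Of these, 2 were Cre-negative controls and 2 were labelled Hnf4a;Cdx2 double knockout, and the labels call the replicates biological. Every mouse, controls included, had been given 1 mg tamoxifen on 5 days to recombine the conditional alleles, and the controls lack the Cre that would respond. The promoter that drives Cre, the deleted exons, the exact age and the interval between tamoxifen and collection are not stated in the labels. The epithelium was detached with EDTA, so a library mixes crypt and villus cells, and in such bulk RNA fewer cells of a type cannot be told apart from less RNA per cell.

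Bile acids made in the liver help to absorb fat along the small intestine and are recovered mainly in the ileum, the last segment. There the apical sodium-dependent transporter encoded by Slc10a2 brings them into the enterocyte, the ileal lipid-binding protein encoded by Fabp6 carries them through the cytoplasm, and a basolateral transporter made of the Slc51a and Slc51b products releases them to the blood. Bile acids also activate the nuclear receptor FXR (gene Nr1h4), which induces the hormone FGF15. FGF15 reaches the liver and lowers bile acid synthesis. In the jejunum, the middle segment, the ileal genes are normally scarce, and the transcription factor GATA4 is known to hold Slc10a2 low there.

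The promoters of Slc10a2 and Fabp6 are shown because the study targeted 2 transcription factors that bind such regions. They run from 250 bases before the annotated start site to 50 after it, on the strand of the gene, as given by RefSeq for GRCm38.p6. Both lie on the minus strand, at chr8:5105238-5105537 for Slc10a2 and chr11:43601513-43601812 for Fabp6. Capitals mark matches to 4 patterns searched on both strands: TTTATNG (CDX type), CAAAGTNCA (HNF4 type), and 2 palindromes in which a half-site is followed, after 1 free base, by its reverse complement, with the half-site TTAAT (HNF1 type) or AGGTNA (the inverted repeat bound by FXR).
Slc10a2 promoter: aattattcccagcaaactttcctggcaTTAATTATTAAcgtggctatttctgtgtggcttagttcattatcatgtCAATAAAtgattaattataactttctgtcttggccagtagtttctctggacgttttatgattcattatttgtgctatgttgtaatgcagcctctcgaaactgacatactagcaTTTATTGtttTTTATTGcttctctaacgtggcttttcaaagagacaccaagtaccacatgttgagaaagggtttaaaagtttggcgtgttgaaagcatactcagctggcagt
Fabp6 promoter: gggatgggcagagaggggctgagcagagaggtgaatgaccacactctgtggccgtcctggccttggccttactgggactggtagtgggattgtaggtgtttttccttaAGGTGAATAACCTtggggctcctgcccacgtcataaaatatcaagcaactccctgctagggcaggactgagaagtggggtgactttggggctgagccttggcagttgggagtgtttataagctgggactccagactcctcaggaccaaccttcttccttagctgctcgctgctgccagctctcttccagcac

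The Slc10a2 window held 3 CDX-type matches, at bases 76 to 82, 189 to 195 and 199 to 205, and 1 HNF1-type match at bases 28 to 38, counted from 1 at the 5′ end. The Fabp6 window held the inverted repeat at bases 109 to 121. No matches overlapped, and the HNF4 pattern was in neither window. Among 32851 promoter windows of the same length, 10.9% held the CDX pattern, 1.41% the HNF4 pattern, 0.122% the HNF1 pattern and 0.0213% the inverted repeat. The patterns were chosen with these sequences in view, so the shares do not measure how unlikely the matches were. A match describes letters and does not show that a factor binds there. A missing match holds only for the letters searched and does not show that a window lacks sites of that type.

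The libraries were checked before the members. Hnf4a stood at 156.4 and 202.2 FPKM in controls and at 31.6 and 48.2 in the other group, a fall (limma, adjusted p = 0.0147). Cdx2 went against its label and rose, from 70.9 and 65.2 FPKM in controls to 159.8 and 161.0 (limma, adjusted p = 0.0150). A gene-level FPKM can include exons outside the deleted part, so the Cdx2 value does not test the deletion, and the group is called the libraries labelled double knockout. Without control replicate 1 or 2 the limma adjusted p was 0.0648 and 0.0885 for Hnf4a and 0.0712 and 0.0887 for Cdx2, and for Cdx2 it was also 0.0503 and 0.0597 without labelled double knockout replicate 1 or 2. Epithelial markers (6 of 6 detected) summed to 5807 to 7285 FPKM in controls and 6046 to 6243 in the other group, although 2 of them, Epcam and Vil1, were called lower (limma, adjusted p = 0.0300 and 0.0411). Enterocyte markers (4 of 4 detected) summed to 21320 to 22910 FPKM in controls and 17590 to 20230 in the other group. Of these 4 markers, 1 was called, Sis, which was lower (limma, adjusted p = 0.0236). Leukocyte markers (6 of 7 at a mean of at least 1 FPKM) summed to 24.5 to 58.8 FPKM in controls and 14.5 to 25.4 in the other group, with Itgam called lower (limma, adjusted p = 0.0410). Itgam reached that mean only through the controls, at 2.234 and 2.765 FPKM against 0.7062 and 0.5495. Hepatocyte markers summed to at most 0.561 FPKM per library, and Cyp7a1 and Serpina1a were listed at 0 throughout. Crypt markers summed to 170 to 397 and 382 to 410 FPKM, with control replicate 2 lowest and 0 of 6 called. Pancreas markers summed to 6.77 to 7.09 and 15.3 to 29.1 FPKM, nearly all from Cela1 (limma, adjusted p = 0.0630). Over all genes tested 9.57% were called. The part of these marker levels in the results below was not tested.

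Slc10a2, the apical uptake transporter (chromosome 8, 5085623 to 5105232, mm9), was higher in the libraries labelled double knockout. Its levels were 0.414 and 1.26 FPKM in control replicates 1 and 2 and 5.98 and 3.94 FPKM in labelled double knockout replicates 1 and 2. Both labelled double knockout libraries lay above both controls, although 60.7% of all tested genes had groups that did not overlap. The control libraries themselves differed 3.04-fold. The group means, with SD over 2 libraries each, were 0.836 ± 0.597 and 4.96 ± 1.44 FPKM, a 5.94-fold ratio of FPKM.

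On the log2(FPKM + 1) scale the difference was 1.72 ± 0.32 (SE), with a 95% interval of 0.89 to 2.54, and limma with Benjamini-Hochberg adjustment over 10883 genes called it (adjusted p = 0.0394). Over all genes tested 9.57% were called, 3.77% higher and 5.8% lower in the libraries labelled double knockout. Slc10a2 passed the filter on low values (at least 1 FPKM on average over all libraries) only through that group. The call was lost without any single library, with limma adjusted p-values of 0.107 and 0.0760 without control replicate 1 or 2 and 0.121 and 0.0780 without labelled double knockout replicate 1 or 2. A pseudocount of 0.1 gave a log2 difference of 2.57 and ended the call (limma, adjusted p = 0.0540), and so did a fit without the filter (limma, adjusted p = 0.0786). In the authors' deposited table the Slc10a2 group values were 0.832 and 5.08 FPKM for control and knockout, and the gene was called (q = 0.00669), where 13.2% of the 11594 genes it tested were called.

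Fabp6, the cytoplasmic carrier (chromosome 11, 43409542 to 43415064), was not called in either direction. Its levels were 8.61 and 4.98 FPKM in control replicates 1 and 2 and 1.74 and 4.56 FPKM in labelled double knockout replicates 1 and 2. The lower control and the higher labelled double knockout library were nearly level, and the labelled double knockout libraries differed 2.61-fold. Among all tested genes 60.7% had groups that did not overlap, so the narrow gap here says little.

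The means were 6.79 ± 2.57 and 3.15 ± 1.99 FPKM (SD, n = 2 each), and the log2 difference was -0.96 ± 0.42 (SE; limma, adjusted p = 0.218). Its 95% interval ran from -2.04 to 0.13, so it held both a large fall and a small rise. In the FPKM estimated for each library alone, the levels were 6.56 and 3.33 FPKM in controls and 1.32 and 3.75 in the other group, and the groups overlapped. The authors' deposited table gave 6.34 and 3.04 FPKM in control and knockout without a call (q = 0.390).

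Fgf15, the ileal hormone (chromosome 7, 152082437 to 152086856), was scarce in all libraries. It stood at 0.276 and 0.224 FPKM in control replicates 1 and 2, at 0.0940 in labelled double knockout replicate 1, and was listed at 0 in labelled double knockout replicate 2. The controls were the higher libraries, but every value lay under the filter and the gene was not tested. The authors' deposited table also left it untested, with group values of 0.252 and 0.0481 FPKM. In a fit without the filter the log2 difference was -0.26 (limma, adjusted p = 0.125).

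**Figure D1:**
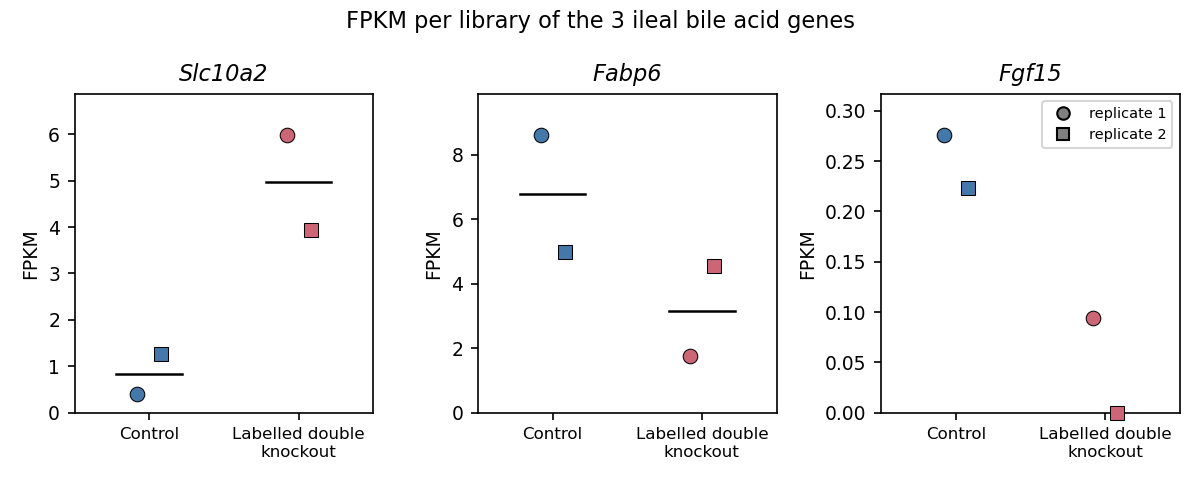
FPKM (vertical axis, from 0, with a separate scale for each gene) of Slc10a2, Fabp6 and Fgf15 in 2 control and 2 labelled double knockout libraries. Points are libraries and bars are group means, left out for Fgf15 where 1 library is listed at 0; Slc10a2 goes from 0.414 and 1.26 to 5.98 and 3.94, while Fabp6 and Fgf15 sit lower or nearly level.

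FPKM is scaled to transcript length. By FPKM, the order of the 3 genes changed in labelled double knockout replicate 1 only. In each control Fabp6 was highest, Slc10a2 second and Fgf15 lowest. Labelled double knockout replicate 1 had Slc10a2 first, and labelled double knockout replicate 2 had Fabp6 at 4.56 FPKM just ahead of Slc10a2 at 3.94, a difference smaller than the spread between those libraries. The ratio of Slc10a2 to Fabp6 within a library was 0.0481 and 0.253 in controls and 3.43 and 0.864 in the libraries labelled double knockout. The groups did not overlap in this ratio, although with 2 libraries a group the smallest two-sided p of an exact permutation test is 0.333.

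Among all 22456 symbols, 51.1% had a lower control mean than Slc10a2, 69.4% a lower one than Fabp6 and 44.1% a lower one than Fgf15. In the libraries labelled double knockout these shares were 65.0%, 60.3% and 36.3%.

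Basolateral export of bile acids needs the 2 subunits encoded by Slc51a and Slc51b together, and these genes were far more abundant than the 3 ileal genes. Slc51a (chromosome 16, 32475664 to 32487965) stood at 197.6 and 199.6 FPKM in controls and at 30.7 and 42.6 FPKM in the libraries labelled double knockout. It fell 5.42-fold, with group means of 199 ± 1.36 and 36.7 ± 8.40 FPKM (SD over 2 libraries), a log2 difference of -2.42 ± 0.21 (SE; limma, adjusted p = 0.00718). Without control replicate 1 or 2 the limma adjusted p was 0.0567 and 0.0588.

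Slc51b stood at 141 and 156 FPKM in controls and at 113 and 121 FPKM in the other group. Its difference was -0.34 ± 0.16 (SE), with a 95% interval of -0.76 to 0.08 on the log2 scale (limma, adjusted p = 0.249). Its locus overlaps that of Rasl12, and reads of the overlap could not be assigned without strand. The authors' deposited table put Rasl12 at 0.667 and 0.995 FPKM in control and knockout, estimates that rest on the same reads. The part of the overlap in the Slc51b values was not tested. The ratio of Slc51a to Slc51b within a library was 1.40 and 1.28 in controls and 0.271 and 0.351 in the libraries labelled double knockout. The subunit genes were thus near parity in each control, and Slc51b was the more abundant in each labelled double knockout library.

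Other transporters of bile acids and organic anions moved in both directions. Abcc3, a basolateral efflux pump (chromosome 11, 94204609 to 94254290), stood at 17.3 and 22.1 FPKM in controls and at 75.9 and 58.4 in the other group. It rose 3.41-fold (log2 difference 1.72 ± 0.21, SE; limma, adjusted p = 0.0147), and its limma adjusted p was 0.0767 and 0.0658 without control replicate 1 or 2.

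Abcc2, its apical counterpart, fell from 80.9 and 110 FPKM in controls to 43.8 and 43.1 (log2 difference -1.10 ± 0.20, SE; limma, adjusted p = 0.0373). Its call was lost without any 1 library (limma, adjusted p of 0.0648 to 0.128) and without the filter (0.0605). Slco2b1, an organic anion uptake carrier, fell from 11.8 and 14.9 FPKM to 0.0360 and 0.330 (limma, adjusted p = 0.00331), and the fall passed the threshold under all 12 alternatives.

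Abcc4, another efflux pump, stood at 0.379 and 0.273 FPKM in controls and at 4.67 and 0.705 in the other group, so that labelled double knockout replicate 1 alone was high. Abcc4 passed the filter only through that library. Limma did not call it (adjusted p = 0.245), whereas the authors' deposited table did (q = 0.000868). Abcb11 did not exceed 0.0802 FPKM and Slc10a1, the hepatic uptake carrier related to Slc10a2, did not exceed 0.240.

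**Figure D2:**
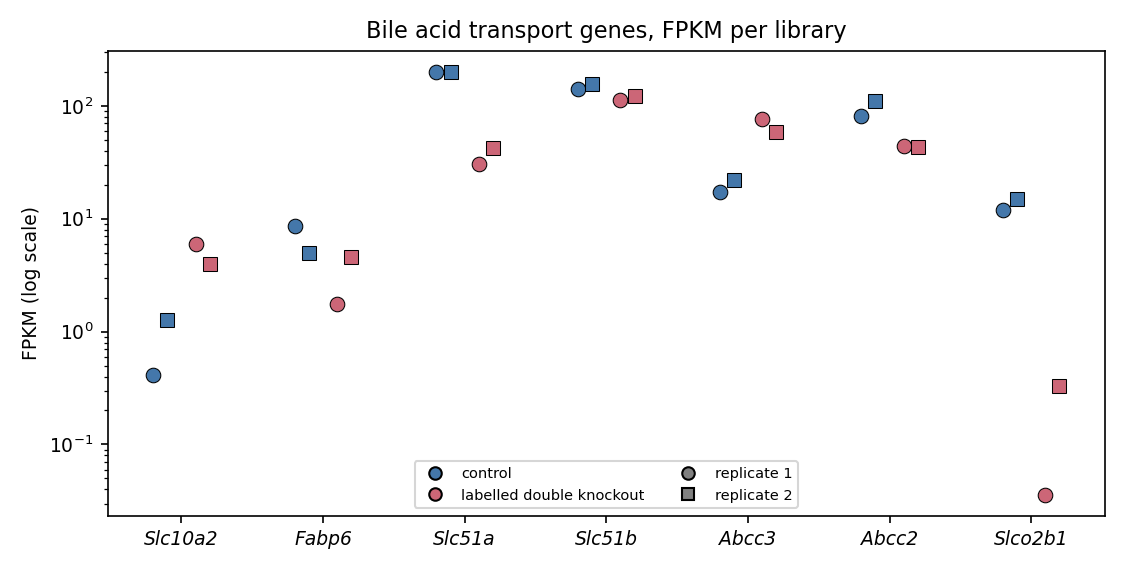
FPKM per library (vertical axis, log scale) of the apical uptake gene Slc10a2, the carrier gene Fabp6, the basolateral genes Slc51a, Slc51b and Abcc3, and the organic anion transporters Abcc2 and Slco2b1. Each point is 1 library, blue for control and red for labelled double knockout; Slc10a2 and Abcc3 lie higher in red, Slc51a, Abcc2 and Slco2b1 lower, and Slc51b differs least.

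Among the sensors of bile acids is Nr1h4, which encodes FXR. It stood at 19.1 and 20.5 FPKM in controls and at 27.9 and 24.2 in the other group (log2 difference 0.38 ± 0.16, SE; limma, adjusted p = 0.202), with a 95% interval of -0.03 to 0.78. Nr0b2, the FXR target gene that encodes the repressor SHP, stood at 8.35 and 2.12 FPKM in controls and at 4.63 and 5.73 in the other group (limma, adjusted p = 0.851). The Nr0b2 controls spread 3.93-fold and enclosed both labelled double knockout libraries.

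Vdr, the vitamin D receptor, which also senses the secondary bile acid lithocholic acid, fell 4.95-fold, from 100.2 and 80.4 FPKM to 16.1 and 20.4 (log2 difference -2.25 ± 0.20, SE; limma, adjusted p = 0.00806, and 0.0555 without control replicate 1). Rxra, the partner of FXR and VDR on DNA, stood at 35.2 and 32.9 FPKM against 22.4 and 17.0 (limma, adjusted p = 0.0698). Gpbar1, the membrane receptor for bile acids, did not exceed 0.0962 FPKM.

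Among transcription factors known to act on the ileal genes, 3 of 15 tested were called, beside 9.57% of all genes, and they were Hnf4a, Hnf4g and Cdx2. The first and last are the targeted genes, so that Hnf4g was the 1 other factor called. Hnf4g, the paralog of Hnf4a, fell from 170 and 238 FPKM to 80.7 and 57.8 (limma, adjusted p = 0.0315). Its limma adjusted p was 0.0773 and 0.127 without control replicate 1 or 2 and 0.105 without labelled double knockout replicate 2, and it was 0.0602 without the filter. Gata4, the jejunal repressor of Slc10a2, stood at 40.8 and 36.1 FPKM in controls and at 37.6 and 39.6 in the other group. Its difference was 0.01 ± 0.15 (SE) with a 95% interval of -0.39 to 0.41 on the log2 scale (limma, adjusted p = 0.978).

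Over the whole pathway list, without the 3 ileal genes, 43 of 44 entries were found and 31 were tested. Of these, 6 were lower (Slc51a, Slco2b1, Abcc2, Vdr, Hnf4a and Hnf4g) and 2 higher (Abcc3 and Cdx2), and 23 were not called. The median log2 difference was -0.25 beside 0.02 over all genes tested. The 8 called are 25.8% of the list beside the 9.57% given above, and 2 of them are the targeted genes. Without control replicate 1 or 2 the count fell to 1 and 2, when the count over all genes fell from 1041 to 166 and 157.

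By role, 4 of 6 tested transport genes, 1 of 6 sensors and 3 of 15 transcription factors were called, beside 9.57% of all genes tested. For conjugation and detoxification it was 0 of 3, the joined Ugt1a row included, and for synthesis 0 of 1. Groups of this size are too small to set against the share over all genes. The factors called include the targeted Hnf4a and Cdx2, and the transport genes called include Slco2b1, which passed the filter only through the controls. Cyp3a13, the pathway gene most abundant over the 4 libraries, stood at 600.0 and 768.8 FPKM in controls and at 1217 and 587 in the other group (limma, adjusted p = 0.650). Cyp3a11, an oxidizing enzyme that detoxifies bile acids, ranged from 626 to 1315 FPKM in controls and from 394 to 607 in the other group (limma, adjusted p = 0.254). Baat, which conjugates bile acids, lay under the filter at 1.52 and 1.81 FPKM in controls and 0.346 and 0.170 in the other group. The authors' deposited table did test Baat and called it lower in knockout (q = 0.0496), where 13.2% of the genes it tested were called. The FGF15 receptor gene Fgfr4 and its co-receptor gene Klb were also under the filter, at most 1.08 and 0.133 FPKM.

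**Figure D3:**
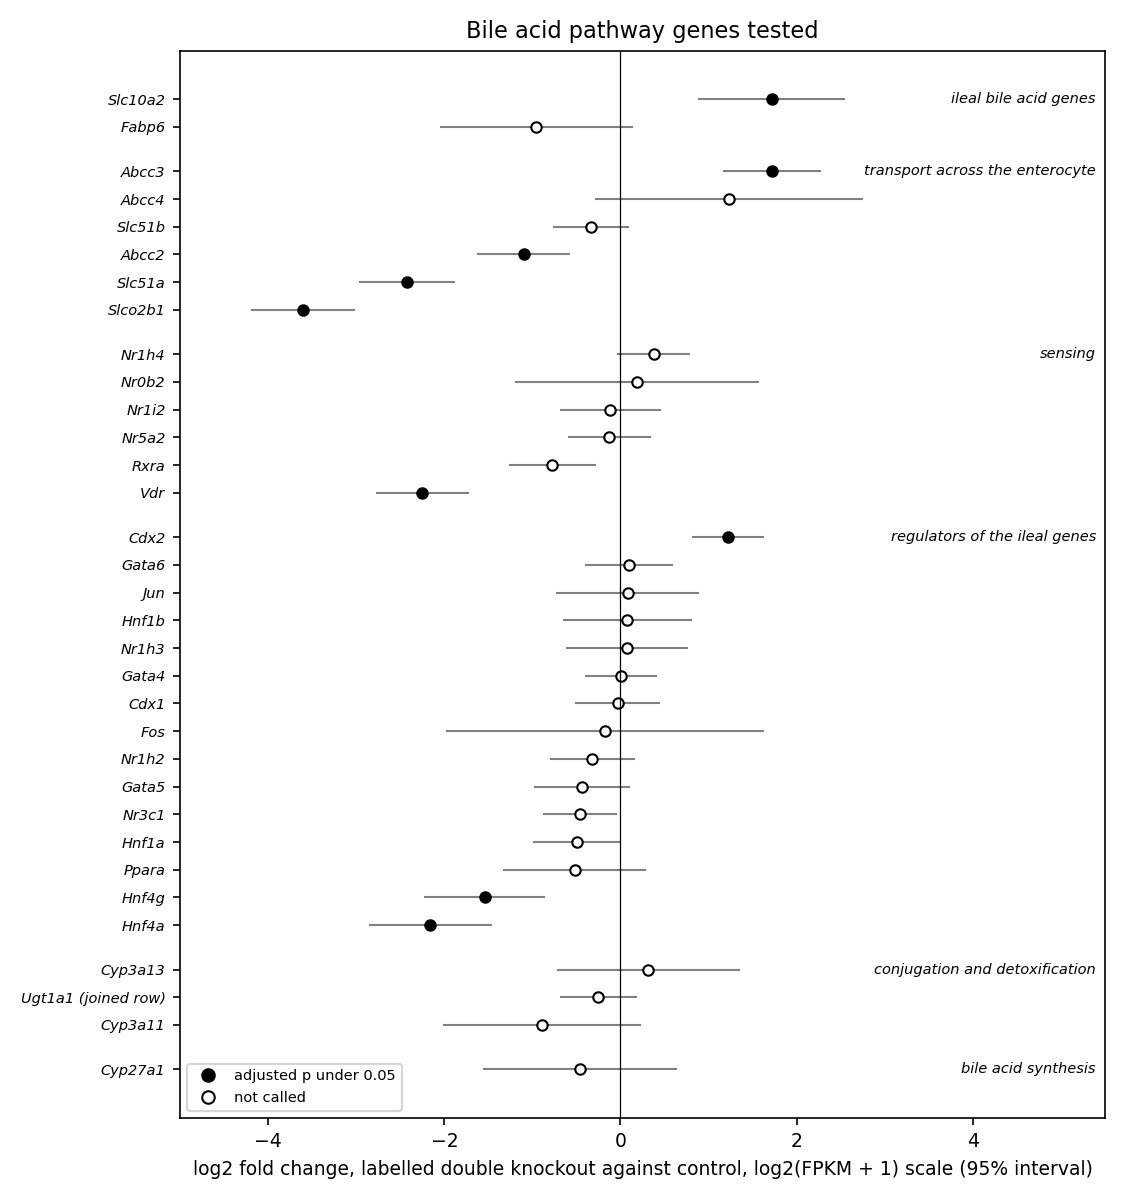
Log2 fold change (horizontal axis, labelled double knockout against control, log2(FPKM + 1) scale) of Slc10a2, Fabp6 and the 31 other bile acid pathway genes tested, grouped by role. Points are limma estimates and lines 95% intervals; filled points passed an adjusted p of 0.05, which 2 pathway genes did above 0 and 6 below, beside Slc10a2 above 0.

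In the SLC10 family of solute carriers, 7 genes were found, Slc10a2 included, and 4 were tested, with Slc10a2 called higher and Slc10a5 lower. Over all genes tested 9.57% were called, and 4 genes are too few to set against that share. Slc10a5, an orphan carrier, fell from 13.0 and 19.8 FPKM to 6.15 and 4.76 (log2 difference -1.41 ± 0.25, SE; limma, adjusted p = 0.0355). Its call was lost without any 1 library (limma, adjusted p of 0.0604 to 0.140) and without the filter (0.0741). Slc10a3, the most abundant, shares a row with Ubl4 and stood at 23.9 to 29.9 FPKM in the 4 libraries. Slc10a7 stood at 4.46 and 4.50 FPKM in controls and at 6.17 and 6.02 in the other group (limma, adjusted p = 0.201).

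Fabp6 belongs to the intracellular lipid-binding proteins, of which 12 genes are described here, Fabp6 included. Of these, 5 were tested, with 1 called higher and 0 lower, where 3.77% of all genes tested were called higher and 5.8% lower. With so few genes the count cannot be told apart from that share. Fabp5, known from epidermis, rose 23.3-fold, from 18.9 and 13.3 FPKM to 372 and 380 (limma, adjusted p = 0.00164), and passed the threshold under all 12 alternatives.

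The carriers typical of enterocytes were far more abundant than Fabp6. Fabp1 ranged from 6863 to 8237 FPKM in controls and from 5532 to 10020 in the other group, and Fabp2 from 6439 to 8157 and from 7467 to 8924 (limma, adjusted p = 0.988 and 0.765). Rbp2, the enterocyte retinol carrier, stood at 4789 and 6808 FPKM in controls and at 3275 and 2496 in the other group (limma, adjusted p = 0.125). The endocrine FGFs related to Fgf15 were also scarce, with Fgf21 listed at 0 throughout and Fgf23 at most 0.0394 FPKM.

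**Figure D4:**
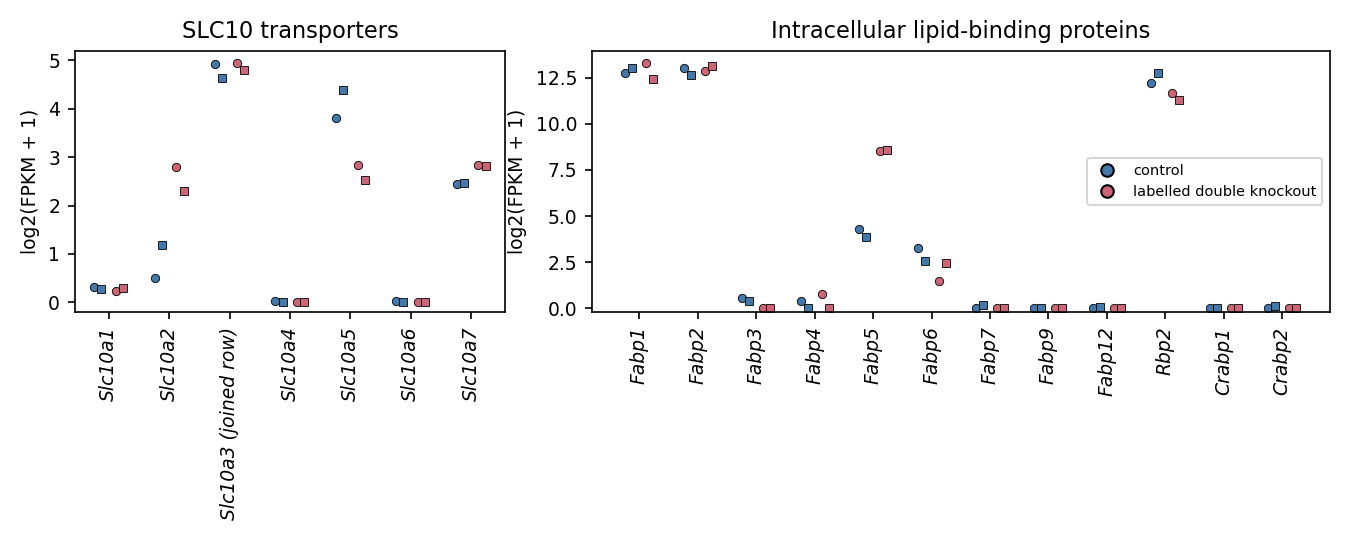
Level per library as log2(FPKM + 1) (vertical axes, which differ between the panels) of the SLC10 transporters on the left and the intracellular lipid-binding proteins on the right. Blue is control and red is labelled double knockout, circles replicate 1 and squares replicate 2; Slc10a2 and Fabp5 lie higher in red, Slc10a5 lower, and Fabp6 lies far below Fabp1 and Fabp2.

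Other genes enriched in the ileum were lower or not called. On a list without Slc10a2, Fabp6 and Fgf15, 7 of 10 tested were lower and 0 higher, at a median log2 difference of -1.74, which includes Slc51a. Over all genes tested 5.8% were lower and 3.77% higher. Cubn and Amn, the 2 parts of the ileal vitamin B12 receptor, stood at 39.0 and 12.2 and at 110 and 58.4 FPKM in controls, and at 0.980 and 0.265 and at 27.1 and 16.7 in the other group (limma, adjusted p = 0.0213 and 0.0497). Tcn2, the carrier that takes the vitamin into the blood, fell from 206 and 194 FPKM to 74.6 and 56.5 (limma, adjusted p = 0.0147). Slc5a8, a monocarboxylate carrier, fell from 14.2 and 20.5 FPKM to 0.0734 and 0.0959, and Nts, the neurotensin gene, from 95.8 and 114 to 3.17 and 4.25 (limma, adjusted p = 0.00251 and 0.00137).

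The falls of Slc5a8 and Nts passed the threshold under all 12 alternatives. That of Amn passed under 2 of 12. Leaving out any 1 library ended the calls of Amn and Osr2 (limma, adjusted p up to 0.161 and 0.114). Leaving out control replicate 1 or either labelled double knockout library ended that of Cubn (up to 0.0852), and so did a fit without the filter (0.054). Leaving out either control ended that of Tcn2 (up to 0.0839). The Osr2 call also ended without the filter (0.0528) and with the FPKM of each library alone (0.0630). Cubn and Slc5a8 passed the filter only through the controls, and so did Slco2b1. Osr2, a transcription factor gene, stood at 39.5 and 35.2 FPKM in controls and at 14.9 and 19.1 in the other group (limma, adjusted p = 0.0304).

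Of 13 tested genes enriched in jejunum and duodenum, 2 were lower and 1 higher, at a median of -0.29, where 9.57% of all genes tested were called. Lct and Sis, which encode lactase and sucrase-isomaltase, fell from 300.0 and 283 FPKM to 2.70 and 0.742 and from 462 and 1554 to 57.0 and 25.7 (limma, adjusted p = 0.00233 and 0.0236). The Sis call ended when either control or labelled double knockout replicate 2 was left out (limma, highest adjusted p = 0.0835) and without the filter (0.0563). Pdx1, a duodenal transcription factor gene, rose from 0.499 and 0.530 to 7.46 and 8.02 FPKM (limma, adjusted p = 0.00435). It passed the filter only through the higher group, and the authors' deposited table did not call it (q = 0.115). Apoa1, with the highest control mean of the list, ranged from 7879 to 13840 FPKM over the libraries (limma, adjusted p = 0.447). Apoa4 ranged from 8240 to 17020 FPKM (limma, adjusted p = 0.957).

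The genes whose levels over the 4 libraries lay closest to those of Slc10a2 were Anxa1, S100a5 and Fam149a, at Euclidean distances of 0.47, 0.49 and 0.52 in log2(FPKM + 1). Anxa1 stood at 0.454 and 1.81 FPKM in controls and at 4.56 and 4.39 in the other group, so its controls differed in the same order. For Fabp6 they were Gpx3, Sema5a and Inpp4a, at 0.52, 0.54 and 0.65. Of 10360 genes compared, 2 lay within 0.5 of Slc10a2 and 0 within 0.5 of Fabp6. No tested gene lay near Fgf15: the closest, Bex2, Cml2 and Zfr2, were 1.59, 1.60 and 1.61 away, since Fgf15 itself is under the filter. Likeness over 4 libraries is a description of level and says nothing about shared control.

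The direction of the Slc10a2 and Fabp6 differences was the same under all 12 alternatives, while the Slc10a2 call held under 4 of them. The log2 difference of Slc10a2 ran from 1.38 to 2.73 and that of Fabp6 from -1.47 to -0.45. Slc10a2 kept its call after median centring, quantile normalization, with the FPKM of each library alone and without the intensity trend.

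**Figure D5:**
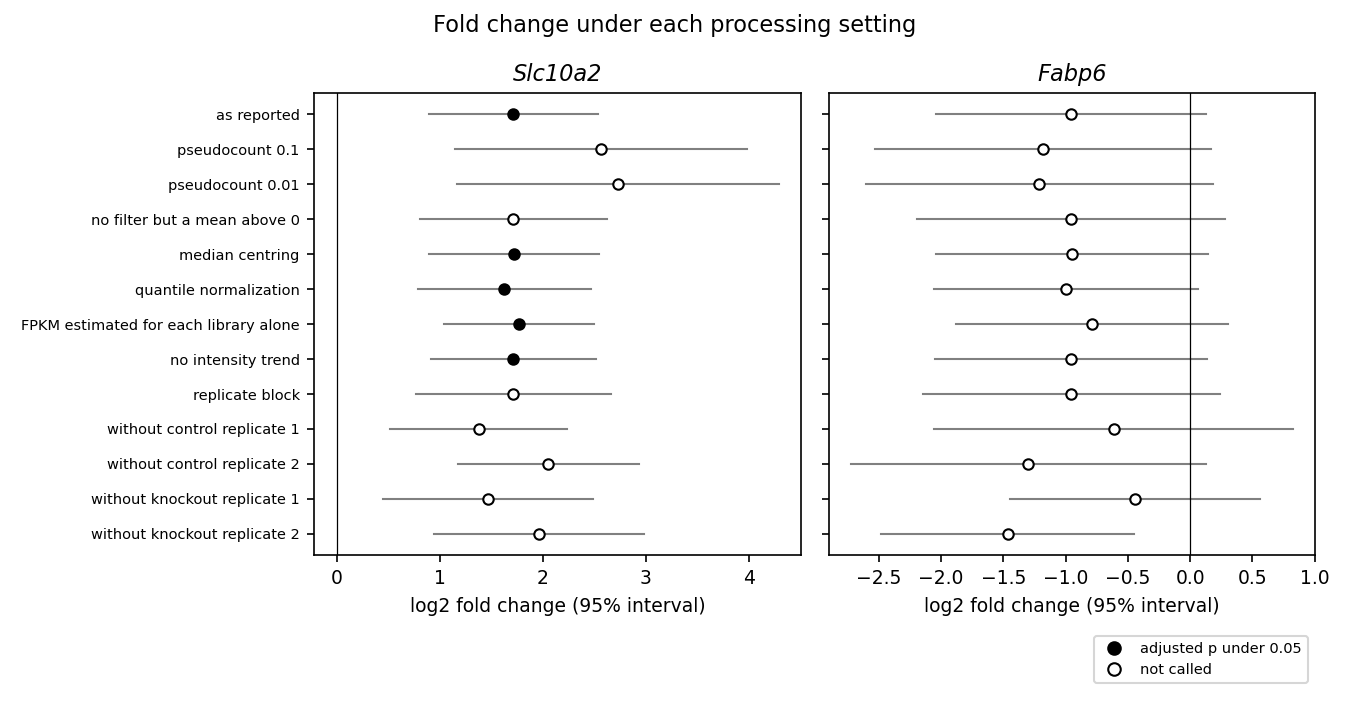
Log2 fold change (horizontal axes, which differ between the panels) of Slc10a2 and Fabp6 as reported and under 12 alternatives, with 95% intervals from limma. Filled points passed an adjusted p of 0.05; every Slc10a2 estimate lies above 0 and every Fabp6 estimate below 0, and no Fabp6 estimate was called.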

How the data were processed

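TruSeq libraries of jejunal epithelial RNA were sequenced to single-end reads of 75 bases, per the labels' protocols. Per the submitters' processing notes, TopHat2 2.0.9, Cufflinks 2.1.1, Cuffnorm and Cuffdiff were used with the mouse build mm9. The main table, as the authors deposited it, has 23735 rows and a column for every library; its header names no unit, and its values were taken here as FPKM, a fragment count scaled by transcript length and depth, normalized across the libraries. The authors also deposited FPKM estimated for each library alone and a comparison table with group FPKM, p-values and q-values. These files hold no read counts, so depth is unknown and no counting error is given; a library summed to 643708 to 689276 FPKM. Where 0 is listed, the estimate may have failed.

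Rows sharing a symbol were summed (147 symbols), 1036 short RNA symbols were left out, and 10883 genes that averaged at least 1 FPKM were tested. The test was limma (3.58.1, R 4.3.3) on log2(FPKM + 1), two-sided, with an intensity trend and Benjamini-Hochberg adjustment over all genes tested, called under 0.05. This scale understates the change of low genes. The script was tested on simulated data with normal noise of the fitted variances, which checks the code and not the noise of low FPKM. With 2 libraries per group, limma moderated the variance of each gene towards a trend over all genes tested. A p-value therefore rests on the few libraries of its gene and on the variance of other genes.

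The 3 genes, the lists and the tests were chosen with earlier results of these data known, and the promoter patterns with the sequences in view. Named genes were the 3 ileal genes, Hnf4a and Cdx2, 6 fixed pathway genes and every called member of each list. The gene with the highest control mean in each family and regional list was also named, and so were the 3 genes closest to each ileal gene. Others (Abcc4, Rxra, Baat, Cyp3a11, Cyp3a13, Fabp2, Rbp2, Apoa4, Slc10a7, Rasl12 and the genes under the filter) were chosen after their values were seen. Starts of loci in the files count from 0 and are printed here from 1. The pathway entry Malrd1 and the ileal entry Clca4b were not analysed here, and 1 listed gene is not reported here. Promoter windows were matched by symbol for 2 of the 3 genes. Alternatives changed the pseudocount, filter, scaling, FPKM source, variance model and replicate block, and left out each library.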

Additional observations from a re-analysis of the deposited data

How the results depend on the processing

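The counts of called genes and of called pathway genes, and the differences of the ileal genes and of the named genes of the rule, were recomputed under 12 alternatives (8 for Fgf15); the counts of the other lists, and genes named only as most abundant, as nearest in level or chosen after their values were seen, were not. The Slc10a2 call (log2 difference 1.72) was lost at pseudocounts of 0.1 and 0.01 FPKM (2.57 and 2.73), without the filter (1.72), with a replicate block (1.72; limma, adjusted p = 0.0681) and without any 1 library (1.38 to 2.06). Fabp6 was called under no alternative, and without 1 library its log2 difference was -1.47 to -0.45. The untested Fgf15 difference of -0.26 went to -1.32 and -3.00 at pseudocounts of 0.1 and 0.01, and it was -0.32 to -0.19 without 1 library. Without 1 library the count of called genes was 157 to 685 in place of 1041, and that of pathway genes 1 to 6 in place of 8. Neither Gata4 nor Nr0b2 was called, and both changed sign without control replicate 2, Gata4 also without labelled double knockout replicate 2 (-0.03): without 1 library Gata4 ran from -0.076 to 0.096 and Nr0b2 from -0.60 to 0.98. Replicate numbers are shared between the groups, but the deviations of replicate 1 from its group mean did not correlate between genotypes (r = -0.0048 across 10883 genes, which are not independent replicates). With the replicate block 786 genes and 6 pathway genes were called, and Abcc2, Hnf4g, Slc10a5 and Osr2 were not (limma, adjusted p = 0.0615, 0.0606, 0.0600 and 0.0596). The FPKM of each library alone moved the median of all genes to 0.17 from 0.02, with 515 called higher and 478 lower in place of 410 and 631; the cause was not tested. That setting left out 52 symbols because 1 file holds dates in place of names. For Fgf15 no centring, quantile, trend or block value is given, since it lay under the filter. At levels near or under 1 FPKM, unknown depth limits what Slc10a2 in controls and Fgf15 can show.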
